A study of Mus musculus with 4 samples.

Results

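Matrix metalloproteinases (MMPs), the ADAM, ADAMTS and ADAMTS-like families and their tissue inhibitors (TIMPs) were followed after peripheral nerve injury in the mouse. The members were all rows whose gene symbol begins with Mmp, Timp, Adam, Adamts or Adamtsl followed by a digit, which gave 83 genes of the 21883 features listed. The study used wild-type young adult male mice of the BL6/C57 strain, in which the sciatic and femoral nerves were transected on the left, and RNA was taken 7 days later. The 4 groups were dorsal root ganglia (DRG, lumbar levels 4 to 6) of the ipsilateral and the contralateral side, and dorsal cord of the lumbar region from the same sides, each represented by 1 library. The contralateral side also came from operated mice and is not uninjured tissue, and the sources used here do not say whether animals were pooled. No difference below has a replicate check, and no test between conditions was possible.

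MMPs are zinc-dependent proteases, secreted or anchored in the membrane, that are made as inactive precursors and cut collagens, laminins and other matrix proteins. TIMPs bind to the active site of these enzymes and block it. ADAMs are membrane proteases that release the outer parts of receptors, growth factors and adhesion molecules, while ADAMTS enzymes are secreted and cut matrix proteoglycans and procollagens; the ADAMTS-like proteins lack the protease domain. In damaged nerve these enzymes are known for opening the blood-nerve barrier, for remodelling the path of regrowing axons and for setting free cytokines.

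Levels are the authors' deposited FPKM, a fragment number scaled to transcript length and library size, which corrects for transcript length. Log2 ratios are log2 of (ipsilateral FPKM + 1) over (contralateral FPKM + 1), which understates the differences of low genes. Measured genes are those that reached 1 FPKM in at least 1 of the libraries of a tissue. Folds are plain ratios of FPKM, and their 95% intervals use a standard error derived from the authors' deposited table, which describes 1 library against 1 library and leaves out variation between animals. The labelled tissues carried their markers: 12 of 12 sensory neuron genes were measured in DRG, and 11 of 12 dorsal horn neuron genes and 8 of 8 oligodendrocyte genes in cord.

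Of the 83 members, 39 were measured in DRG and 36 in cord, 30 of them in both. Another 38 stayed under 1 FPKM in every library, and 13 of these were listed at 0 in all 4. Timp2, Adam23, Timp3 and Adam22 were the 4 highest in every library except ipsilateral DRG, where Adam10 (75.2 FPKM) lay above Adam22 (70.5 FPKM). Timp2, Timp3 and Adam23 together made up 55.9% of the summed FPKM of all members in ipsilateral DRG, against 60.9% in contralateral DRG. In cord the same genes made up 50.1% ipsilaterally, against 55.8% contralaterally.

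**Figure D1:**
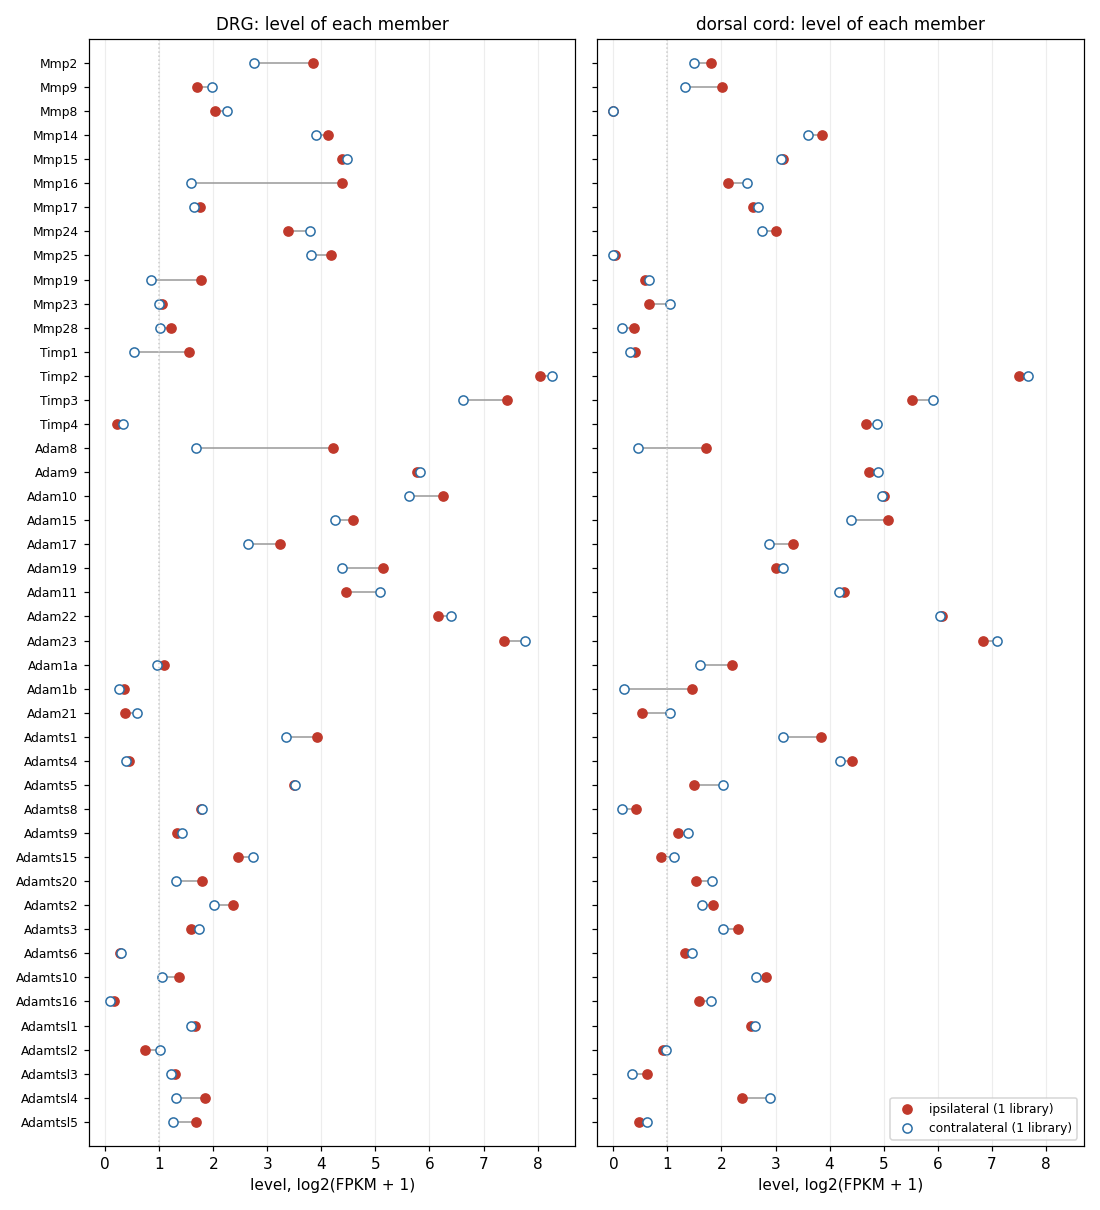
Level of each of the 45 members measured in a tissue, as log2(FPKM + 1), in DRG (left panel) and dorsal cord (right panel), with 1 library per point; filled red points are ipsilateral, open blue points contralateral, and the dotted line marks 1 FPKM. The widest gaps are those of Mmp16 and Adam8 in DRG and of Adam8 and Adam1b in cord, while Timp2 lies furthest right in all 4 libraries.

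In ipsilateral DRG, 4 of the 39 measured members were at least 2-fold higher (log2 ratio of at least 1), namely Mmp16, Adam8, Mmp2 and Timp1. That is 10.3% of the members, against 3.04% of all measured features. None was at least 2-fold lower (0 of 39), against 0.784% of all features. The median log2 ratio was 0.12 over the members and 0.05 over all 13137 measured features, and 24 members lay above 0 and 15 below. This share of 61.5% above 0 lies near the 56.1% of all measured features. The authors' deposited table called 6 members significantly higher (Mmp16, Adam8, Mmp2, Mmp19, Timp3 and Adam19), 14.0% of the 43 it tested, against 4.64% of all tested features. It called 1 member lower, Adam11, which is 2.33% of the members, against 1.9% of all features.

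In ipsilateral cord, 2 of the 36 measured members were at least 2-fold higher, Adam8 and Adam1b, and the authors' deposited table called both. This share of 5.56% lies near the 4.46% of all measured features, and the called share of 4.44% of 45 tested members lies near the 4.52% of all tested features. None was at least 2-fold lower, against 1.64% of all features, and none was called lower, against 1.55%. The median log2 ratio of the members was -0.02, against 0.02 over all 13351 measured features, with 18 members above 0 and 18 below. Of all measured features in cord, 51.6% lay above 0. Counts above 0 in the lists below are to be set beside 56.1% in DRG and 51.6% in cord. In each tissue 27 measured members had a log2 ratio within 0.5 of 0.

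**Figure D2:**
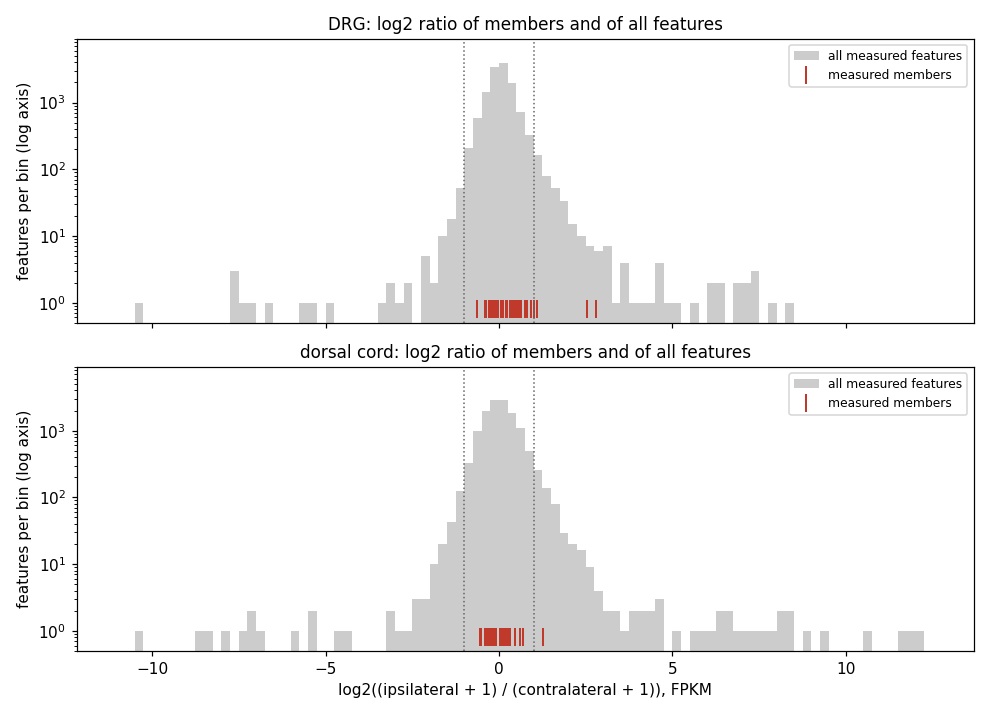
Log2 ratios of ipsilateral over contralateral FPKM (pseudocount 1) for all measured features (grey bars, number per bin on a log axis) and for the measured members (red ticks), in DRG (top) and dorsal cord (bottom); dotted lines mark 2-fold. In DRG 4 ticks lie past the right line, the furthest at 2.80, and in cord 2 ticks lie past it, the furthest at 1.26; no tick lies past the left line in either tissue.

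The membrane-type MMPs sit on the cell surface, where they cut matrix and activate other MMPs. Mmp16, which encodes MT3-MMP, had 19.9 FPKM in ipsilateral DRG, against 2.01 FPKM in contralateral DRG. Its log2 ratio of 2.80 was the highest of all members in either tissue, and the 9.94-fold difference had bounds of 6.35 and 15.6, derived from the authors' deposited table. Mmp16 is at mm9 chromosome 4, 17780628 to 18045881, and in the GENCODE M21 annotation (GRCm38) its exons overlap no other gene. In cord Mmp16 stood at 3.33 FPKM ipsilaterally and 4.52 FPKM contralaterally (log2 ratio -0.35), and the fold interval derived from the authors' deposited table ran between 0.44 and 1.22. The high level was thus seen in 1 of the 4 libraries, the ipsilateral DRG.

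The other 5 membrane-type genes differed little between the sides. Mmp14, encoding MT1-MMP, the main activator of the MMP2 precursor, had 16.5 FPKM in ipsilateral and 14.0 FPKM in contralateral DRG (log2 ratio 0.23), and 13.5 against 11.2 FPKM in cord (0.25). Mmp15 had 20.0 FPKM in ipsilateral and 21.1 FPKM in contralateral DRG (-0.07), and 7.77 against 7.58 FPKM in cord (0.03). Mmp24, encoding MT5-MMP, an enzyme of neurons, had 9.47 FPKM in ipsilateral and 12.9 FPKM in contralateral DRG (-0.40), and 7.10 against 5.72 FPKM in cord (0.27). In GENCODE M21, 14.8% of the exonic bases of Mmp24 lie under BC029722 on the opposite strand, so its value is uncertain. Mmp17, encoding MT4-MMP, had 2.36 FPKM in ipsilateral and 2.14 FPKM in contralateral DRG (0.10), and 5.02 against 5.40 FPKM in cord (-0.09). None of these intervals, derived from the authors' deposited table, excluded 1. The summed level of the 6 genes was 85.3 FPKM in ipsilateral DRG, against 65.1 FPKM in contralateral DRG, and Mmp16 accounted for most of that difference; in cord the sums were 36.7 and 34.4 FPKM.

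The gelatinases MMP2 and MMP9 cut denatured collagen and basement membrane collagen. Mmp2 had 13.3 FPKM in ipsilateral DRG, against 5.70 FPKM in contralateral DRG (log2 ratio 1.09). The fold of 2.33 had bounds of 1.54 and 3.53, and the authors' deposited table called it (q = 0.00263). In cord Mmp2 was low on both sides, at 2.50 FPKM ipsilaterally and 1.80 FPKM contralaterally (0.32). Mmp2 is typical of fibroblasts, and the list of 10 fibroblast and meningeal genes moved with it in DRG. All 9 measured genes of that list lay above 0, 3 of them at least 2-fold higher, and its summed level was 925 FPKM ipsilaterally, against 459 FPKM contralaterally, with no marker at 0. The part of such cells in the Mmp2 difference was not tested, and in bulk RNA more cells of a type and more RNA per cell cannot be told apart.

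Mmp9, an enzyme of neutrophils, macrophages and injured neurons, lay below 0 in DRG, unlike Mmp2, and above 0 in cord, like Mmp2. It had 2.24 FPKM in ipsilateral and 2.91 FPKM in contralateral DRG (-0.27), and 3.04 FPKM in ipsilateral and 1.51 FPKM in contralateral cord (0.69). In cord the fold of 2.01 had bounds of 1.02 and 3.98, and the authors' deposited table called Mmp9 in neither tissue (q = 0.762 in DRG and q = 0.223 in cord). Mmp8, the neutrophil collagenase, had 3.10 FPKM in ipsilateral and 3.77 FPKM in contralateral DRG and was listed at 0 in both cord libraries. Mmp25, encoding MT6-MMP or leukolysin, had 17.0 FPKM in ipsilateral and 13.0 FPKM in contralateral DRG (0.36), against 0.017 and 0 FPKM in cord. The neutrophil markers were near 0 in cord. They had a summed level of 289 FPKM in ipsilateral and 308 FPKM in contralateral DRG, where 1 of the 6 measured markers lay above 0 and 5 below. In cord they summed to 0.87 FPKM ipsilaterally and 0.47 FPKM contralaterally, and S100a9, Camp, Ltf, Elane, Retnlg and Cxcr2 were at 0 on both sides. The myeloid markers summed to 300 FPKM in ipsilateral and 74.0 FPKM in contralateral cord, and to 132 against 50.5 FPKM in DRG. The part of neutrophils and myeloid cells in the levels of Mmp8, Mmp9 and Mmp25 was not tested.

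Mmp19, a secreted enzyme that cuts basement membrane proteins, had 2.40 FPKM in ipsilateral DRG, against 0.80 FPKM in contralateral DRG (log2 ratio 0.91). It fell just short of 2-fold on this scale, but the authors' deposited table called it (q = 0.0234), with a 2.99-fold difference and an interval of 1.55 to 5.77. In GENCODE M21, 22.8% of its exonic bases lie under Tmem198b on the opposite strand, and the counting strand was not given in the sources used here, so its value is uncertain. In cord Mmp19 stayed under 1 FPKM, at 0.50 FPKM ipsilaterally and 0.58 FPKM contralaterally. Mmp23 and Mmp28 were near 1 FPKM on both sides of the DRG.

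Mmp11, or stromelysin 3, stayed under 1 FPKM, at 0.88 FPKM in ipsilateral and 0.67 FPKM in contralateral DRG and 0.37 against 0.30 FPKM in cord. Mmp21 was listed at 0 in ipsilateral DRG and in both cord libraries, and at 0.14 FPKM in contralateral DRG.

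A cluster of 10 genes for secreted MMPs lies on mm9 chromosome 9, from 7272513 to 7699416. Mmp8 was the single gene of the cluster above 1 FPKM in any library. The other 9 reached at most 0.31 FPKM, which was Mmp13, a collagenase of bone and cartilage, in contralateral DRG; ipsilaterally it was at 0.039 FPKM. Mmp3, or stromelysin 1, was at 0.12 FPKM in ipsilateral DRG and listed at 0 in contralateral DRG, and was listed at 0 in ipsilateral and at 0.15 FPKM in contralateral cord. Mmp12, the macrophage metalloelastase, was at 0.072 FPKM in ipsilateral and 0.045 FPKM in contralateral DRG and listed at 0 in both cord libraries. Mmp1a, Mmp1b, Mmp7, Mmp20 and Mmp27 were listed at 0 in all 4 libraries.

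The promoters of this cluster are shown because 8 of its 10 genes share a motif close to the start site, although none of these 8 was measured. The motif searched was TGANTCA, which was looked for on both strands. With C or G in the middle it is the site of AP-1 factors such as Jun and Fos, and 7 of the 8 stretches have that form; the stretch of Mmp20, TGAATCA, does not. The search covered RefSeq windows (GRCm38.p6) from 250 bases before to 50 bases after each start site. TGANTCA is held by 7.81% of 32851 windows of all genes, and by 8.97% of 27025 genes in at least 1 window. Among the 4745 features that, like these genes, were measured in neither tissue and have a window, 12.2% hold TGANTCA and 7.23% hold the form with C or G. Windows were at hand for 4745 of 7624 such features, too few for a check over the whole set. The cluster was chosen after its values were seen, and its genes are tandem relatives and so not independent. Below, 41 bases around the motif are given 5′ to 3′ on the gene's strand, with the motif in capitals.
Mmp13, chr9:7272462-7272502, plus strand: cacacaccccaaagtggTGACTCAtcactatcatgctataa
Mmp12, chr9:7347313-7347353, plus strand: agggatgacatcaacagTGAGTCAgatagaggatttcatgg
Mmp1b, chr9:7388096-7388136, minus strand: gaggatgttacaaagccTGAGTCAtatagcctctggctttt
Mmp3, chr9:7445759-7445799, plus strand: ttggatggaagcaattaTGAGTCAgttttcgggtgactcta
Mmp1a, chr9:7464051-7464091, plus strand: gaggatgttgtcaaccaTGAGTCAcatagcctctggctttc
Mmp10, chr9:7502262-7502302, plus strand: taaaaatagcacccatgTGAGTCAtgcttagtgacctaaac
Mmp20, chr9:7628119-7628159, plus strand: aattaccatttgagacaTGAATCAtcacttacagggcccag
Mmp7, chr9:7692010-7692050, plus strand: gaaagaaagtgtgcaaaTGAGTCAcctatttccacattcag

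The first base of the motif lay between -95 (Mmp20) and -35 (Mmp13) relative to the start site, and the windows of Mmp8 and Mmp27 did not hold these letters. Mmp12 and Mmp7 each have 2 windows, and only 1 of the 2 holds the motif. A match is a description of the letters and not a bound site. Windows were at hand for 52 of the 83 members (62.7%), too few for a check over the whole set. Of members measured in a tissue and with a window, 2 of 30 (6.67%) hold TGANTCA, against 6.37% of all such features. Of members measured in neither, 10 of 22 hold it, 8 of these being the genes of this cluster, against 12.2% of all such features.

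The TIMPs held the largest summed level of all role groups in each library, and their members differed in direction. Timp2 is the inhibitor that also takes part in activating MMP2 at the cell surface. It had 264 FPKM in ipsilateral and 306 FPKM in contralateral DRG (log2 ratio -0.21), and 181 against 202 FPKM in cord (-0.16). Both fold intervals included 1. Timp3, which binds to the matrix and also inhibits ADAM17 and several ADAMTS enzymes, had 173 FPKM in ipsilateral DRG, against 97.8 FPKM in contralateral DRG (0.81). The fold of 1.77 had bounds of 1.23 and 2.54, and the authors' deposited table called it (q = 0.0388). In cord Timp3 stood at 45.0 FPKM ipsilaterally and 59.3 FPKM contralaterally (-0.39), with fold bounds of 0.54 and 1.06. The sum of all 4 TIMPs, 439 FPKM in ipsilateral and 404 FPKM in contralateral DRG, differed by less than Timp3 alone, because Timp2 lay the other way.

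Timp1, the inducible inhibitor known from wounds and inflammation, had 1.93 FPKM in ipsilateral DRG, against 0.45 FPKM in contralateral DRG. Its log2 ratio of 1.02 lay just past 2-fold, and the 4.31-fold difference had a wide interval of 1.26 to 14.7; the authors' deposited table did not call it (q = 0.170). The standard error corresponds to about 19.7 fragments ipsilaterally and 2.92 contralaterally. In cord Timp1 stayed under 1 FPKM, at 0.32 FPKM ipsilaterally and 0.24 FPKM contralaterally. Timp4 showed the opposite tissue pattern, with 24.5 FPKM in ipsilateral and 28.6 FPKM in contralateral cord (-0.21), against 0.16 and 0.25 FPKM in DRG. Of these genes, Timp1, Timp3 and Timp4 share a locus with a synapsin gene in the authors' deposited table (Syn1 together with Araf, Syn3 and Syn2, in that order).

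Those synapsin genes had ratios of their own. Syn1 had 144 FPKM in ipsilateral and 139 FPKM in contralateral DRG (log2 ratio 0.05), far above Timp1 in level. Syn3 had 3.97 FPKM in ipsilateral and 3.41 FPKM in contralateral DRG (0.17), far below Timp3, and Syn2 had 42.2 against 57.0 FPKM there (-0.43). In GENCODE M21 the exons of Timp1 and Timp3 overlap no other gene, and 1.53% of the exonic bases of Timp4 lie under Syn2 on the opposite strand. Timp1, Adam8 and Adam1b are the members past 2-fold in a tissue for which a RefSeq promoter window (GRCm38.p6) was at hand, and all 3 are shown in full. TGANTCA, in capitals, is found in that of Adam1b, at 20 relative to the start site, and in neither of the others. The search takes exact letters only, and the Timp1 window holds tgagtaa, which differs from TGAGTCA by 1 letter. Of 2 further genes called higher in DRG, Adam19 holds TGAGTCA at -131 in 1 of its 3 windows, and the window of Timp3 does not hold TGANTCA. Adam1b and Adam19 are the only 2 of the 30 measured members with a window that hold it.
Timp1, chrX:20869916-20870215, plus strand: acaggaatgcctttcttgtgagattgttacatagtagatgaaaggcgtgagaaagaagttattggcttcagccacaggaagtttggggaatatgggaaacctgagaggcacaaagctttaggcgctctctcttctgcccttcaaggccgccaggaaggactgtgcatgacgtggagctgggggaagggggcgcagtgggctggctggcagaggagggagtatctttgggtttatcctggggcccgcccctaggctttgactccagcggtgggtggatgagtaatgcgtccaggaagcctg
Adam8, chr7:139992513-139992812, minus strand: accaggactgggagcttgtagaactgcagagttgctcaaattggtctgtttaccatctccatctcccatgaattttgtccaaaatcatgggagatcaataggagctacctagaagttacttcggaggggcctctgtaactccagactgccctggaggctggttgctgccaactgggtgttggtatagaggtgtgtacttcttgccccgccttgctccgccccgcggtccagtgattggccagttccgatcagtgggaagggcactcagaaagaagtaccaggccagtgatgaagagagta
Adam1b, chr5:121503386-121503685, minus strand: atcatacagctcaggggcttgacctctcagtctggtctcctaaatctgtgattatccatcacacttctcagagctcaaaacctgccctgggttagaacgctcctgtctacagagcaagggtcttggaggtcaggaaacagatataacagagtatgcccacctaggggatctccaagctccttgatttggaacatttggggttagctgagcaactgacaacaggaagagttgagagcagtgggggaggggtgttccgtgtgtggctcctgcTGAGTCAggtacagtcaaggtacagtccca

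**Figure D3:**
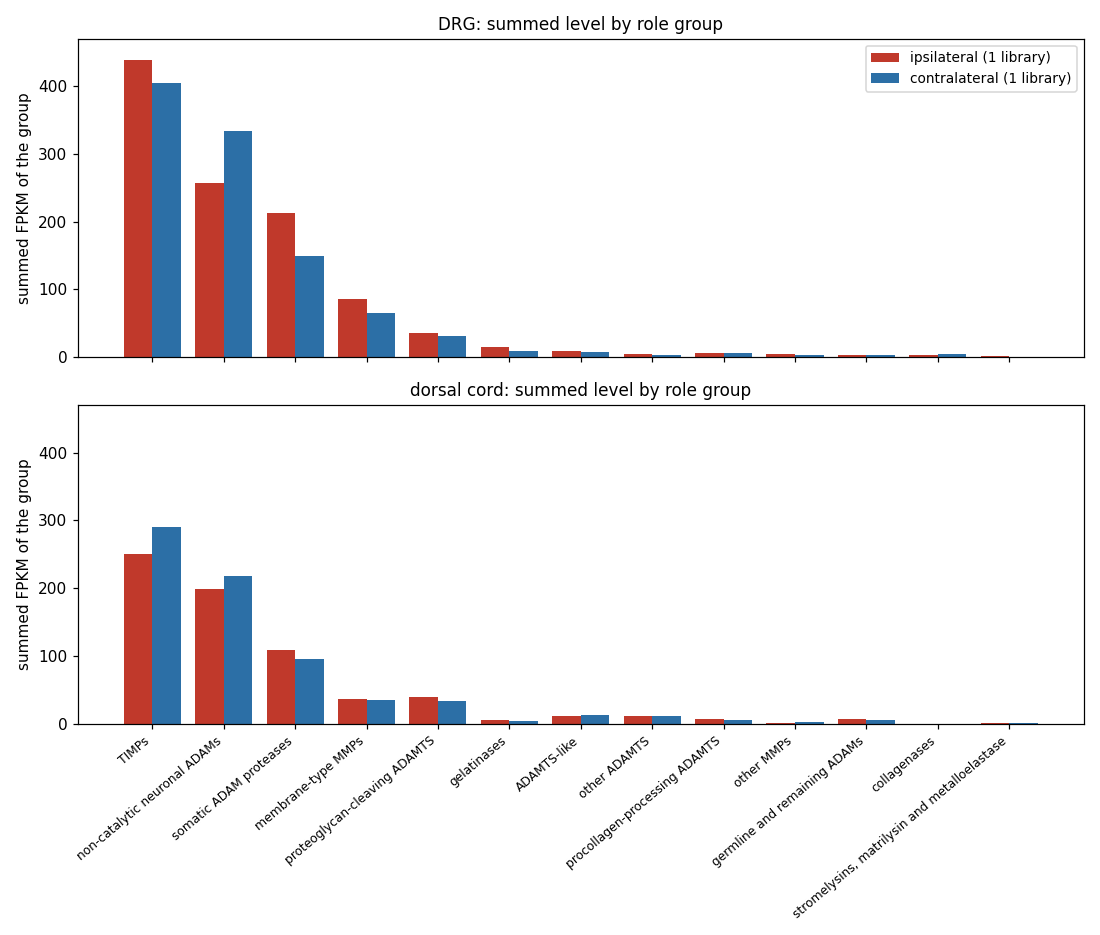
Summed FPKM of the members of each role group in DRG (top) and dorsal cord (bottom), with the ipsilateral library in red and the contralateral library in blue; each bar is 1 library, so there are no error bars. The somatic ADAM proteases stand at 212 FPKM in ipsilateral and 149 FPKM in contralateral DRG, and the non-catalytic neuronal ADAMs at 257 against 333 FPKM.

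Among the somatic ADAM proteases, 5 of the 6 genes measured in DRG lay above 0, with a median log2 ratio of 0.62, against 0.05 over all features; in cord 4 of 6 did, with a median of 0.24. Adam8, an ADAM of leukocytes that releases adhesion molecules and receptors, had 17.5 FPKM in ipsilateral DRG, against 2.21 FPKM in contralateral DRG (log2 ratio 2.52). In cord it had 2.30 FPKM ipsilaterally, against 0.37 FPKM contralaterally (1.26). The 7.90-fold difference in DRG had bounds of 4.88 and 12.8, and the 6.17-fold difference in cord had bounds of 2.42 and 15.7; the authors' deposited table called both (q = 0.0063 in cord). Adam8 is at mm9 chromosome 7, 147164839 to 147178387. Adam8 was the single member at least 2-fold higher in both tissues, 1 of the 30 measured in both, as 0.45% of all features measured in both were. The cord value rests on little: its standard error corresponds to about 24.4 fragments ipsilaterally and 5.34 contralaterally.

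Myeloid markers moved with Adam8. All 10 genes of that list lay above 0 in both tissues, 7 of them at least 2-fold higher in DRG and 9 in cord, and none was at 0. The summed level was 132 FPKM in ipsilateral and 50.5 FPKM in contralateral DRG, and 300 FPKM in ipsilateral and 74.0 FPKM in contralateral cord. Ipsilateral cord had the higher myeloid sum and the lower Adam8 level. The tables of the tissues were normalised separately, so this comparison is approximate and nothing is drawn from it. The part of myeloid cells in the Adam8 difference was not tested.

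Adam10 and Adam17 encode the main sheddases of the nervous system, which release Notch, adhesion molecules, TNF and ligands of the EGF receptor. Adam10 had 75.2 FPKM in ipsilateral and 48.0 FPKM in contralateral DRG (log2 ratio 0.64), and 31.2 against 30.5 FPKM in cord (0.03). Adam17 had 8.46 FPKM in ipsilateral and 5.22 FPKM in contralateral DRG (0.61), and 9.06 against 6.36 FPKM in cord (0.45). In DRG the intervals of both folds, 1.10 to 2.23 for Adam10 and 1.09 to 2.42 for Adam17, lay above 1, but the authors' deposited table called neither (q = 0.126 and q = 0.163). In GENCODE M21, 6.90% of the exonic bases of Adam17 lie under Iah1 on the opposite strand.

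Adam19, a sheddase of neuregulin, which guides Schwann cells, had 34.1 FPKM in ipsilateral DRG, against 19.8 FPKM in contralateral DRG (log2 ratio 0.75). In GENCODE M21, 9.20% and 7.52% of its exonic bases lie under Gm16033 and Gm16034 on the opposite strand, so its value is uncertain. The authors' deposited table called it (q = 0.0403), and the 1.72-fold difference had bounds of 1.21 and 2.44. In cord Adam19 stood at 7.01 FPKM ipsilaterally and 7.79 FPKM contralaterally (-0.13). Adam15 had 23.0 FPKM in ipsilateral and 18.1 FPKM in contralateral DRG (0.33), and 32.8 FPKM in ipsilateral and 19.9 FPKM in contralateral cord (0.69); 24.7% of its exonic bases lie under another gene on the opposite strand. Adam9 was close between the sides, at 53.4 FPKM in ipsilateral and 55.8 FPKM in contralateral DRG and 25.4 against 28.9 FPKM in cord. Adam12 and Adam33 stayed under 1 FPKM, and Adam28 was listed at 0 in all 4 libraries.

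The partners and substrates of ADAM10 and ADAM17 differed little as lists. Of 8 measured tetraspanin and iRhom partners in DRG, 6 lay above 0 and none passed 2-fold, and in cord 3 of 7 lay above 0. Tspan5, a tetraspanin that carries ADAM10 to the cell surface, had 41.6 FPKM in ipsilateral cord, against 73.2 FPKM in contralateral cord, and the authors' deposited table called it lower (q = 0.0270). Of 23 measured substrates, 15 lay above 0 in each tissue, with medians of 0.13 in DRG and 0.03 in cord. The 1 substrate past 2-fold in DRG was Tnfrsf1b, a TNF receptor gene, at 3.76 FPKM ipsilaterally and 1.20 FPKM contralaterally (1.11). In cord it was Il6ra, the interleukin 6 receptor gene, at 4.16 against 1.05 FPKM (1.33).

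ADAM11, ADAM22 and ADAM23 lack protease activity and serve as neuronal receptors of the secreted LGI proteins, holding synapses and axonal potassium channels in place. All 3 genes lay below 0 in ipsilateral DRG. Adam11 had 21.1 FPKM in ipsilateral DRG, against 32.9 FPKM in contralateral DRG (log2 ratio -0.62), the lowest ratio of all measured members there. The authors' deposited table called it lower (q = 0.0101), with a fold of 0.64 and an interval of 0.50 to 0.82. Adam23 had 165 FPKM in ipsilateral and 217 FPKM in contralateral DRG (-0.39), with fold bounds of 0.61 and 0.96, and the authors' deposited table did not call it (q = 0.169). Adam22 had 70.5 FPKM in ipsilateral and 83.7 FPKM in contralateral DRG (-0.25).

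In cord these genes were close between the sides. Adam11 had 18.4 FPKM in ipsilateral and 17.1 FPKM in contralateral cord (log2 ratio 0.10), and Adam22 had 66.8 against 64.7 FPKM (0.05). Adam23 had 114 FPKM in ipsilateral and 137 FPKM in contralateral cord (-0.26). Among the 8 genes of the LGI complex, 6 lay below 0 in ipsilateral DRG, with a median of -0.40, and the authors' deposited table called Lgi3, Kcna2 and Dlg4 lower. Lgi3, one of the LGI ligands, had 12.3 FPKM in ipsilateral DRG, against 29.0 FPKM in contralateral DRG (-1.17). Kcna2, a potassium channel gene of the axon, had 45.1 against 78.2 FPKM (-0.78). In cord 4 of the 8 lay above 0 and none was called. Sensory neuron markers moved with these genes in DRG: all 12 lay below 0, 1 of them at least 2-fold lower, none was at 0, and their sum was 1900 FPKM ipsilaterally, against 2571 FPKM contralaterally. The part of that shift in the levels of the non-catalytic ADAMs was not tested.

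**Figure D4:**
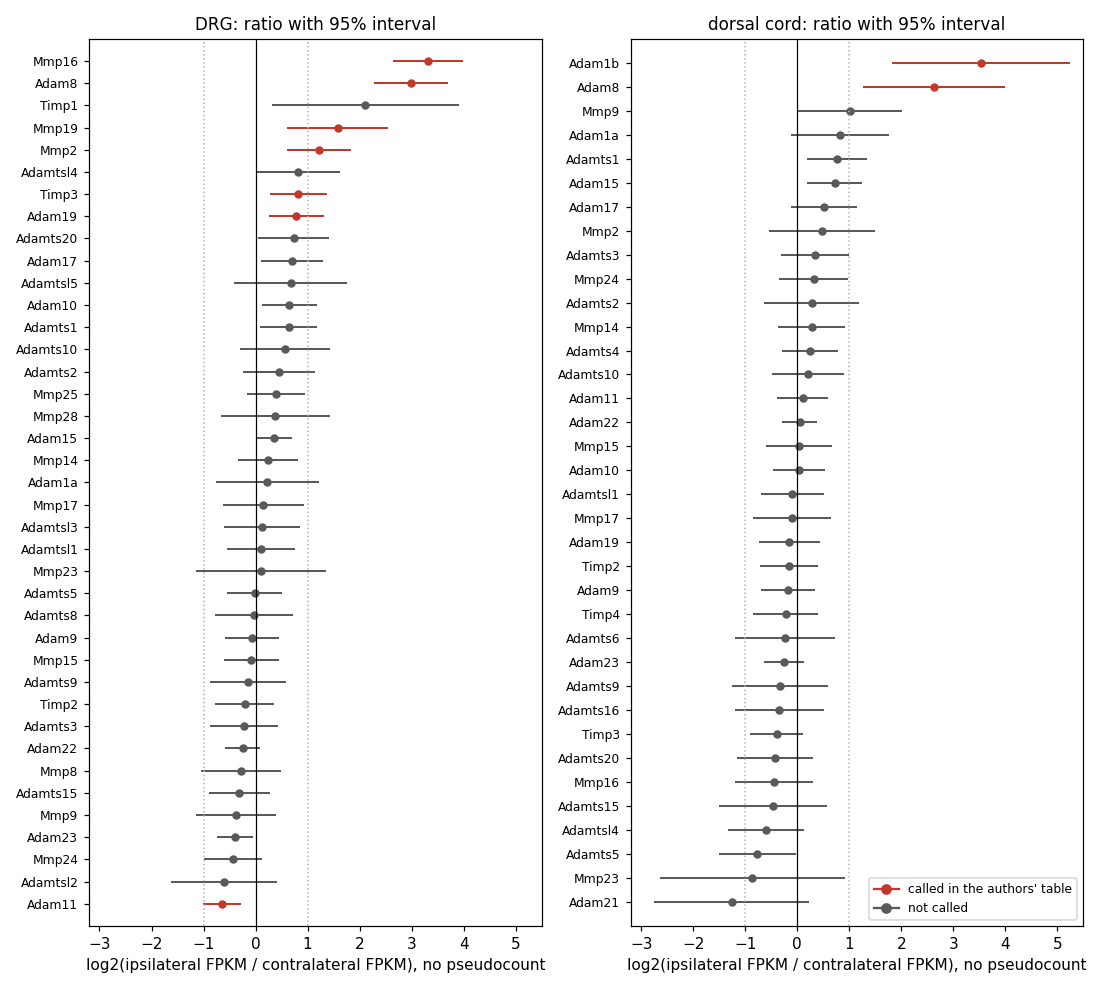
Plain log2 ratio of ipsilateral over contralateral FPKM for every measured member in DRG (left) and dorsal cord (right), with its 95% interval, derived from the authors' deposited table; red marks members called there, and dotted lines mark 2-fold. In DRG the intervals of 13 members (33.3%) lie above 0, against 10.1% of all measured features with an interval, and those of 2 (5.13%) below 0, against 6.35%; in cord 5 (13.9%) lie above, against 12.4%, and 1 (2.78%) below, against 7.99%.

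The ADAMs of the germline and the remaining ADAM genes were mostly under 1 FPKM: of these 20 genes, 1 was measured in DRG and 3 in cord. Adam1b, a sperm ADAM in the mouse, had 1.75 FPKM in ipsilateral cord, against 0.15 FPKM in contralateral cord (log2 ratio 1.26), and the authors' deposited table called it (q = 0.00272). Its standard error corresponds to about 26.8 fragments ipsilaterally and 3.13 contralaterally. In DRG Adam1b stayed at 0.27 FPKM ipsilaterally and 0.20 FPKM contralaterally. Its neighbour and close relative Adam1a had 3.56 FPKM in ipsilateral and 2.02 FPKM in contralateral cord (0.59), and fragments shared between such copies could have been split, so both values are uncertain. In GENCODE M21, 63.7% of the exonic bases of Adam1a are shared with Gm42878 and 24.0% with Mapkapk5, both on the same strand. A further 11.3% lie under Tmem116 on the opposite strand, while the exons of Adam1b overlap no other gene. Adam21, also known from testis, had 0.44 FPKM in ipsilateral and 1.06 FPKM in contralateral cord (-0.52).

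ADAMTS enzymes that cut proteoglycans such as aggrecan, versican and brevican showed no member past 2-fold in either tissue. Adamts1 lay above 0 in both, at 14.2 FPKM in ipsilateral and 9.09 FPKM in contralateral DRG (log2 ratio 0.59) and 13.3 FPKM in ipsilateral and 7.86 FPKM in contralateral cord (0.69). Its intervals, 1.08 to 2.25 in DRG and 1.16 to 2.49 in cord, lay above 1, and the authors' deposited table called neither (q = 0.165 and q = 0.0801). Adamts5, an aggrecanase, had 10.2 FPKM in ipsilateral and 10.3 FPKM in contralateral DRG (-0.02), and 1.82 against 3.10 FPKM in cord (-0.54), the lowest ratio of a measured member there. Adamts4, the other main aggrecanase, had 20.4 FPKM in ipsilateral and 17.2 FPKM in contralateral cord (0.23), against 0.35 and 0.31 FPKM in DRG. The other genes of the group measured in DRG, Adamts8, Adamts9, Adamts15 and Adamts20, had log2 ratios between -0.26 (Adamts15) and 0.48 (Adamts20) there.

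The other ADAMTS genes were low. Adamts2, which trims procollagen, had 4.13 FPKM in ipsilateral and 3.02 FPKM in contralateral DRG (log2 ratio 0.35), and 2.58 against 2.13 FPKM in cord (0.19). Adamts10, a partner of fibrillin, had 1.58 FPKM in ipsilateral and 1.07 FPKM in contralateral DRG (0.32), and 6.04 against 5.24 FPKM in cord (0.18). Adamts16 was measured in cord alone, at 1.98 FPKM ipsilaterally and 2.52 FPKM contralaterally (-0.24). Adamtsl4, which also binds fibrillin, differed in sign between tissues, with 2.59 FPKM in ipsilateral and 1.46 FPKM in contralateral DRG (0.54), and 4.21 FPKM in ipsilateral and 6.41 FPKM in contralateral cord (-0.51); the authors' deposited table called neither. The other 4 ADAMTS-like genes, Adamtsl1, Adamtsl2, Adamtsl3 and Adamtsl5, lay between -0.28 (Adamtsl2) and 0.43 (Adamtsl5) in DRG.

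Among the lectican and link protein substrates, 3 of 7 measured genes lay above 0 in DRG (median -0.40) and 2 of 8 in cord (median -0.21). Vcan, encoding versican, had 2.38 FPKM in ipsilateral DRG, against 1.33 FPKM in contralateral DRG, and was called higher in the authors' deposited table. Hapln1, the link protein that fixes lecticans to hyaluronan, had 2.96 FPKM in ipsilateral cord, against 7.59 FPKM in contralateral cord (log2 ratio -1.12). Of the matrix partners, 8 of 10 measured genes lay above 0 in DRG (median 0.39) and 3 of 7 in cord (median -0.02). Comp, a cartilage matrix gene whose product is cut by ADAMTS7 and ADAMTS12, had 0.99 FPKM in ipsilateral DRG, against 5.60 FPKM in contralateral DRG (-1.73), while Ltbp1, which stores TGF-beta in the matrix, had 5.55 against 2.05 FPKM (1.10).

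Of the regulators of metalloproteinases outside the families, 12 of the 13 genes measured in DRG lay above 0, with a median log2 ratio of 0.35. Plaur and Plau, both past 2-fold, belong to the urokinase system, which generates plasmin, an activator of MMP precursors. Plaur, the urokinase receptor gene, had 13.0 FPKM in ipsilateral DRG, against 1.86 FPKM in contralateral DRG (2.29). Plau, encoding urokinase, had 9.82 FPKM in ipsilateral and 3.71 FPKM in contralateral DRG (1.20). In cord 9 of 11 measured genes lay above 0 (median 0.20). Plau had 1.48 FPKM in ipsilateral and 0.25 FPKM in contralateral cord (0.99), and the authors' deposited table called it (q = 0.0405). Plaur had 1.38 FPKM ipsilaterally and was listed at 0 contralaterally, with no call there. Reck, a membrane-anchored inhibitor of MMPs, had 4.54 FPKM in ipsilateral and 2.78 FPKM in contralateral DRG (0.55).

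Across the 30 members measured in both tissues, 10 were above 0 in both and 6 below 0 in both, while 8 were above 0 in DRG and below in cord and 6 the reverse. The tables of the tissues were normalised separately, so levels set across them are approximate. Members measured in DRG alone numbered 9, among them Timp1, Mmp8, Mmp19 and Mmp25, and those measured in cord alone numbered 6, among them Timp4, Adamts4 and Adamts16.

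**Figure D5:**
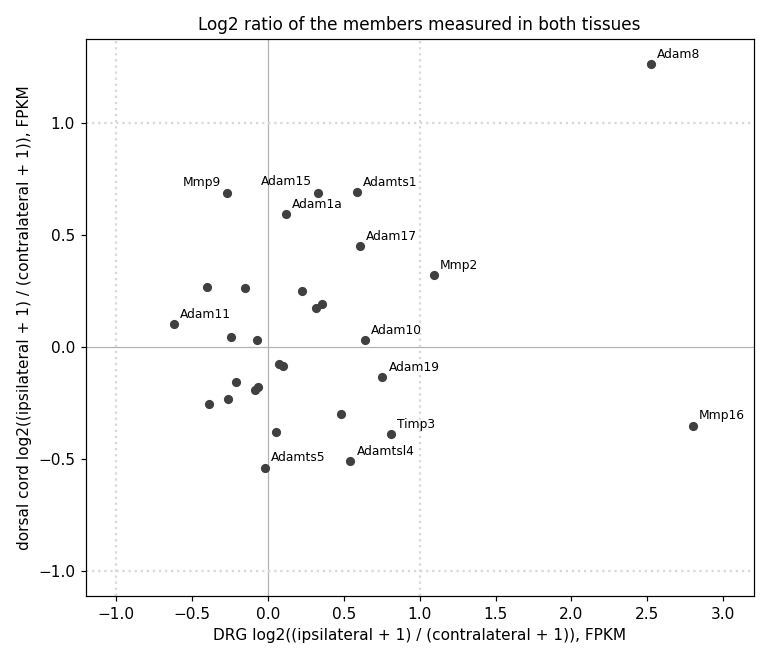
Log2 ratio of ipsilateral over contralateral FPKM (pseudocount 1) in DRG (horizontal) and dorsal cord (vertical) for the 30 members measured in both tissues; each point is 1 gene, labelled where its ratio stands out, and dotted lines mark 2-fold. Adam8 lies past 2-fold on both axes (2.52 and 1.26), whereas Mmp16 lies at 2.80 in DRG and at -0.35 in cord.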

How the data were processed

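RNA of 4 libraries, 1 per group, was measured by RNA sequencing. Per the labels, a QIAGEN RNeasy kit served for extraction and an Epicentre ScriptSeq kit for the libraries. The submitters' processing notes name Cuffdiff 1.3.0, TopHat 1.4.0 and the mm9 build. Annotation, filters and strand setting are not given in the sources used here. Per the file headers, the authors deposited FPKM, a log2 fold change, a test statistic, p-values and q-values for each feature, in 1 table per tissue. The authors' log2 fold change runs contralateral over ipsilateral in the cord table and was turned round here.

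The standard error of a log2 fold is the authors' log2 fold change divided by their test statistic, and on that scale features with 1 fragment in each library show what a fragment is worth. In DRG 50 of 53 such features agreed to 2 decimals, and the FPKM of 1 fragment, ipsilateral over contralateral, had a ratio of 0.639. In cord 20 of 20 agreed, with a ratio of 1.35. Total depth is unknown, and the summed FPKM was 425636 to 442298 per library. Fragment numbers are those that would give the same standard error by counting alone, and are not read counts. In ipsilateral DRG, Adam12 at 0.37 FPKM has a number of 24.1, and Adam10 at 75.2 FPKM has 107. At high levels the standard error thus holds more than counting error, and the number lies below the true count.

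Python 3.11.15 with pandas 2.3.3 was used, and the ratios and intervals were tested on simulated data. The pseudocount was 1 FPKM and the measured minimum 1 FPKM. The alternatives changed the pseudocount (0.1 or 3 FPKM), the minimum (none or 5 FPKM) and the scaling of each library (by its median or its upper quartile), kept features with test status OK alone, or took the authors' deposited calls. The members, role groups and lists were chosen with earlier results of these data known. Values are given for members past 2-fold, members called by the authors, all TIMPs, the 5 highest per tissue and those next to the 2-fold line; other members are given within their role group, and up to 4 genes of a related list with the largest ratios. Mmp13 and the cluster on chromosome 9, the marker genes named at 0, Reck, 1110012D08Rik and the synapsin genes were chosen after their values were seen. Protein motifs were not analysed here. The number of sample columns not used was 0. Some results of the related lists are not reported here.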

Additional observations from a re-analysis of the deposited data

Results flagged for a closer look

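In 4 members that were past 2-fold or called by the authors in DRG, the log2 ratio had the opposite sign in cord; with 1 library per side, this difference between tissues was not tested. Mmp16 stood at 2.80 in DRG and -0.35 in cord, Timp3 at 0.81 in DRG and -0.39 in cord, and Adam19 at 0.75 in DRG and -0.13 in cord. Adam11 stood at -0.62 in DRG and 0.10 in cord.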

How the results depend on the processing

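The number of members at least 2-fold higher in DRG was 4. It stood between 3 and 5 under the other alternatives that used the fold, except a pseudocount of 3 FPKM, which left 2 (Adam8 and Mmp16). The share of all features moved as well, from 3.04% to 5.17% at a pseudocount of 0.1 FPKM and 1.55% at 3 FPKM. Under the other fold alternatives that share lay between 1.83% (no minimum) and 3.04%. The authors' calls, taken in place of the fold, gave 6, among them Adam19 and Timp3, which were under 2-fold. The 2 members higher in cord, Adam1b and Adam8, came to 0 of 36 at a pseudocount of 3 FPKM and 0 of 20 at a filter of 5 FPKM, since both lie at a low level. The share of all features in cord was 4.46% in the main setting, 1.98% at that pseudocount and 3.79% at that filter. For members at least 2-fold lower, the count of 0 became 1 in cord at a pseudocount of 0.1 FPKM (Adam21). There 3.60% of all features were lower, against 1.64% in the main setting. The authors' calls, taken in place of the fold, gave 1 lower member in DRG (Adam11), which was short of 2-fold. Timp1 no longer passed 2-fold after median or upper-quartile rescaling, and Mmp19 passed it at a pseudocount of 0.1 FPKM. The medians stayed within 0.04 to 0.28 in DRG and -0.07 to 0.03 in cord. The 132 values of the 19 named members under another pseudocount or rescaling moved by no more than their 95% intervals allow, which are very wide for low genes: between pseudocounts of 3 and 0.1 FPKM the log2 ratio ran from 0.59 to 2.88 for Adam1b in cord, from 0.65 to 2.34 for Adam8 in cord and from 0.52 to 1.89 for Timp1 in DRG. Of the 132 values, 2 changed sign, Adam10 and Adam22 in cord after median rescaling, both near 0. No paired analysis was possible because each group holds 1 library, so leaving out a replicate was not possible either. Low levels limit Timp1 in DRG and Adam1b and Adam8 in cord, whose standard errors correspond to few fragments contralaterally.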
